A study of Homo sapiens with 10 samples.

Results

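FOXO1, FOXO3 and FOXO4 encode transcription factors of the forkhead family, and PIK3IP1, CCNG2, SESN3, KLHL24, IRS2, INSR and CITED2 are genes that these factors are known to activate. The 10 genes were taken as a named list, not by their values, but with earlier results of these data known. They are 10 of the 58174 gene identifiers in the tables. RNA was sequenced from SNU-387, an established line from a pleomorphic hepatocellular carcinoma, in 10 poly(A) libraries. In 5 libraries the cells stably expressed wild-type YES and in 5 they expressed YES T348I. YES, the product of YES1, is a tyrosine kinase of the SRC family, and T348I replaces its gatekeeper residue, which lines the pocket where kinase inhibitors bind. All cells of both groups had received 100 nM dasatinib, an inhibitor of SRC-family and ABL kinases, so the comparison is between 2 genotypes under the drug. No untreated library was analysed here, and the labels do not say whether each line is a clone or a pool.

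Growth factor receptors and the insulin receptor activate PI3K, which in turn activates the kinase AKT. AKT phosphorylates FOXO proteins, and 14-3-3 proteins then hold them outside the nucleus, so target genes are transcribed less. When the pathway is quiet, FOXO proteins enter the nucleus and activate genes of cell cycle exit, stress resistance, autophagy and cell death, and also genes such as INSR and IRS2 that restore sensitivity to insulin, a circuit studied widely in liver. FOXO activity is set largely by phosphorylation and location, and only RNA was measured here.

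Libraries 1, 2 and 3 of each genotype have long sample titles and libraries 4 and 5 short ones, and this title set was a term in the model. The libraries held 10168307 to 16939029 gene counts. Among long-title wild-type libraries, number 1 differed most from the rest (chi-square per degree of freedom over genes 52.8 against library 2 and 37.4 against library 3, with 13.6 between those 2), while the 3 long-title T348I libraries differed by little more than counting noise (1.62 to 2.12). No label says that the libraries of a genotype came from separate cultures, and the p-values then reflect the spread of these 5 libraries, which may be technical. YES1 counts, which join the endogenous gene and the construct, were 303 ± 102 CPM (counts scaled to library size; mean ± SD, n = 5) with wild-type YES and 453 ± 86.4 CPM with T348I, with overlapping ranges. YES1 was called higher with T348I (0.59 on the log2 scale, adjusted p = 0.0326, edgeR), but not in 9 of 21 alternatives, among them no title set term (adjusted p = 0.126) and leaving out wild-type library 4 or 5 or T348I library 1, 2, 3 or 4 (0.0522 to 0.112). Of 13 hepatocyte markers, 11 averaged under 1 CPM, ALB and HNF4A among them, so the hepatocyte origin in the labels was hardly visible; the exceptions were SERPINA1 and AFP. Summed, the 13 reached 10.4 to 23.6 CPM in the wild-type group and 10.4 to 24.0 CPM in the T348I group. The 9 mesenchymal markers all averaged over 1 CPM and summed to 12371 to 38269 CPM with wild-type YES and 8949 to 13861 CPM with T348I. Of these 9 genes 2, FN1 and COL3A1, were called lower, beside 13.3% of all genes tested. The part of these markers in the results was not tested. In these bulk samples, fewer cells with a transcript and less of it per cell cannot be told apart.

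The 3 short promoter stretches here are shown because they hold letters known to be recognised by FOXO proteins. RefSeq (GRCh38.p14) gives 16 promoters for the 10 genes, each from 250 bases before to 50 after a transcript start. The motif GTAAACA, searched on both strands, lay in 2 of the 16, one each of PIK3IP1 and FOXO4. It was in 1202 of all 35116 promoters (3.42%), or for 1145 of 27305 genes (4.19%). CAAAACAA, a form of the insulin response element that shares no base with a GTAAACA match in these windows, was searched afterwards and lay in the promoter of IRS2 and in 1.68% of all promoters. Capitals mark the motif, which in PIK3IP1 and IRS2 reads as the reverse complement.
PIK3IP1: taaagagaggcTGTTTACcagaacagcata
FOXO4: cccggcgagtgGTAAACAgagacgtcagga
IRS2: cgagtcacatgTTGTTTTGctcttcttagt
The PIK3IP1 stretch is chr22:31292454-31292483 on the minus strand, and its motif begins 17 bases into the RefSeq transcript, in an exon that GENCODE 29 marks as UTR. The FOXO4 stretch is chrX:71095863-71095892 on the plus strand. Its motif begins at base 24 of the RefSeq transcript, upstream of the gene as GENCODE 29 draws it. The IRS2 stretch is chr13:109786606-109786635 on the minus strand, with the motif starting 41 bases before the transcript start. A match is a description of the letters and no evidence of binding.

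All 10 genes had lower fitted levels in T348I than in wild-type cells, and 7 of the 10 fell with p adjusted by Benjamini-Hochberg over 13743 genes under 0.05 in edgeR's quasi-likelihood test. None rose, also with DESeq2 and at an unadjusted p under 0.05. In a model that left out title set 5 of the 10 were called lower, beside 497 of all 13743 genes. In the long-title libraries by themselves 6 were, beside 499 of all 13385 genes. In the short-title libraries by themselves 3 were, beside 599 of all 14531 genes. With title set in the model and all libraries, 27.0% of all genes tested were called, 13.3% lower and 13.7% higher. The median log2 fold change was -0.55 over the 10 genes, which all passed the low-count filter, and -0.03 over all genes, of which 54.4% had a value below 0. PIK3IP1 and KLHL24 fell more than 2-fold, and 352 of all 13743 genes were called with at least that difference in either direction. In 5 of the 10 genes every T348I library lay below every wild-type library, against 4.15% of all genes. In 8 of the 10 this held within the long-title set and within the short-title set, against 11.4% of all genes.

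**Figure D1:**
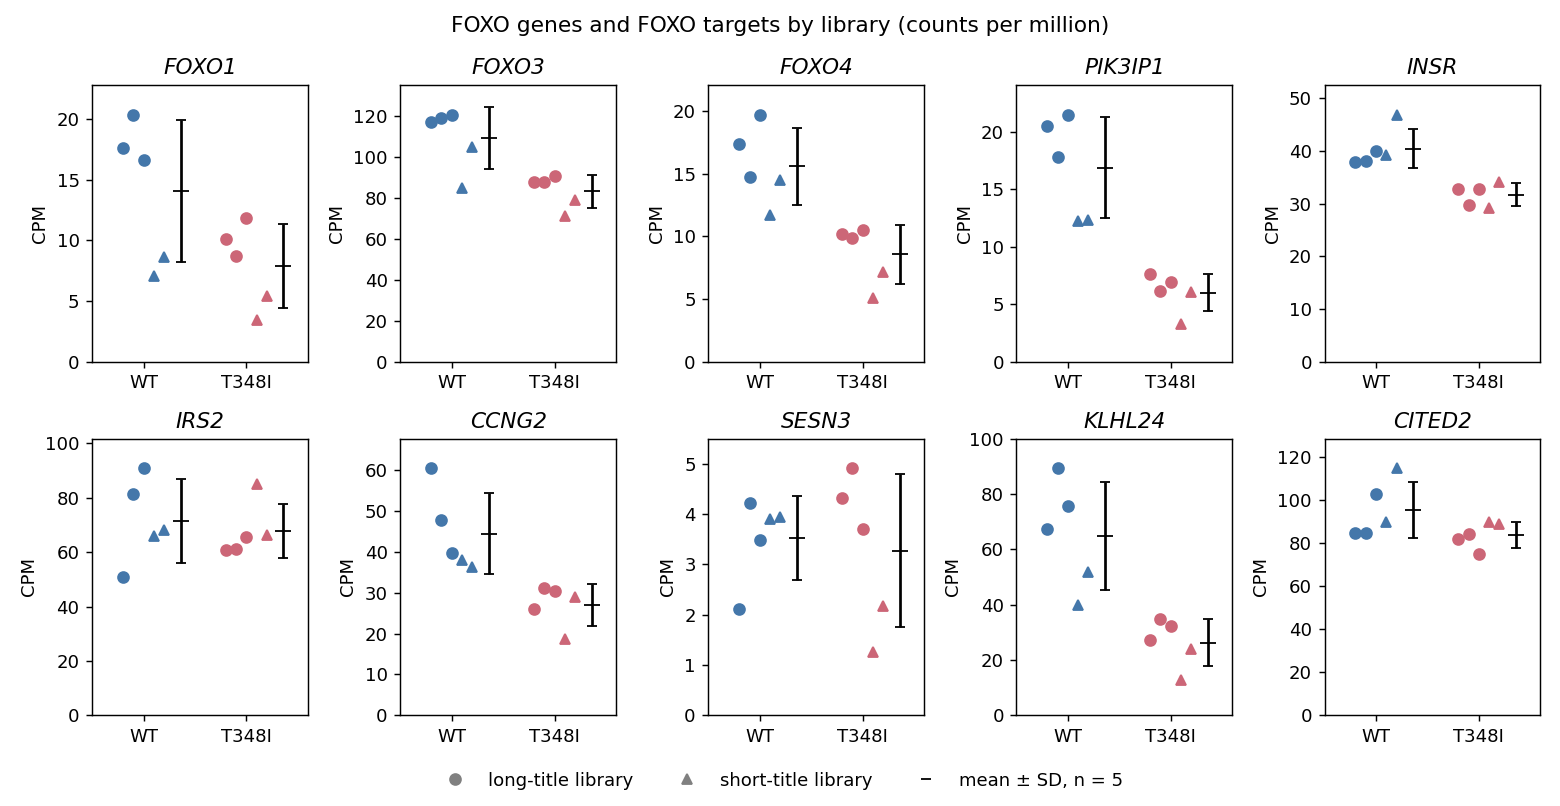
Scaled counts (CPM, linear axes from 0) of the 10 genes in each library, by genotype; circles are long-title and triangles short-title libraries, and bars show the mean ± SD over 5 libraries. The T348I libraries of PIK3IP1 lie between 3.33 and 7.63 CPM, all below the wild-type libraries at 12.3 to 21.5 CPM, while those of IRS2 and SESN3 overlap.

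The 3 FOXO genes fell together. FOXO1 (ENSG00000150907.7, chromosome 13, 40469953 to 40666597, minus strand of GRCh38) encodes the family member best known for hepatic glucose production. It had 17.6, 20.3 and 16.6 CPM in wild-type libraries 1 to 3 and 7.05 and 8.64 CPM in libraries 4 and 5. In T348I cells it had 10.1, 8.73 and 11.8 CPM in libraries 1 to 3 and 3.40 and 5.39 CPM in libraries 4 and 5. The genotypes overlapped over all libraries but not within either title set. The fall was 0.83 on the log2 scale (SE 0.14, adjusted p = 0.000897, edgeR), to 0.562-fold. FOXO1 also differed between title sets, with short-title libraries lower (-1.20 on the log2 scale, adjusted p = 4.14e-05, edgeR). A fit with no title set term gave -0.83 at an adjusted p of 0.181, and the short-title libraries by themselves gave -0.81 at 0.0789, neither of them a call. Part of FOXO1 is overlapped on the same strand by LINC00598, and reads that fall on both are not counted.

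FOXO3 (ENSG00000118689.14, chromosome 6, 108559835 to 108684774, plus strand) encodes the FOXO protein often linked to cell death and quiescence. Its wild-type libraries held 117, 119, 121, 84.8 and 104 CPM in the order 1 to 5. The T348I libraries held 87.7, 87.5, 90.7, 71.0 and 78.9 CPM. Only wild-type library 4 fell inside the T348I range. FOXO3 fell by 0.39 (SE 0.07, adjusted p = 0.00174), to 0.764-fold, and the adjusted p was 0.0504 when title set was left out of the model and 0.146 within the short-title set. A near-identical gene, FOXO3B, was counted at 1.27 ± 0.400 CPM with wild-type YES and 1.08 ± 0.282 CPM with T348I. Reads that map equally well to both copies were counted for neither.

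FOXO4 (ENSG00000184481.16, chromosome X, 71096197 to 71103535, plus strand) is the third FOXO gene of the list and is regulated by AKT in the same way. Wild-type libraries 1 to 5 had 17.4, 14.7, 19.7, 11.7 and 14.5 CPM, and T348I libraries had 10.2, 9.89, 10.5, 5.10 and 7.16 CPM. No T348I library reached the lowest wild-type library. The fall was 0.89 (SE 0.13, adjusted p = 0.000399), to 0.540-fold, close to that of FOXO1. The remaining family member, FOXO6, went from 5.24 ± 2.02 to 3.28 ± 1.17 CPM (-0.71, adjusted p = 0.0439), with overlapping libraries. That call ended in 14 of 21 alternatives, among them no title set term (adjusted p = 0.216), the replicate number as a block (0.0619), the 3 long-title T348I libraries summed into 1 (0.173), and leaving out wild-type library 1, 3 or 4 or any single T348I library (0.0508 to 0.113).

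Of the target genes that act on insulin and PI3K signalling, PIK3IP1 and INSR fell and IRS2 was not called. PIK3IP1 (ENSG00000100100.12, chromosome 22, 31281593 to 31292534, minus strand) encodes a membrane protein that binds and inhibits PI3K, and its promoter stretch is one of those printed above. It had 20.5, 17.8, 21.5, 12.3 and 12.3 CPM in wild-type libraries 1 to 5 and 7.63, 6.14, 6.93, 3.33 and 6.08 CPM in T348I libraries. Even the highest T348I library lay well under the lowest wild-type library. PIK3IP1 fell by 1.47 (SE 0.14, adjusted p = 4.88e-05), to 0.362-fold. This was the largest estimate of the 10 genes, with an interval (-1.78 to -1.16) that overlaps that of KLHL24 (-1.62 to -0.98). The antisense gene PIK3IP1-AS1 overlaps it, and with counts taken without regard to strand the value was -1.43.

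INSR (ENSG00000171105.13, chromosome 19, 7112255 to 7294034, minus strand) encodes the insulin receptor, the entry to the pathway. Wild-type libraries 1 to 5 held 37.9, 38.1, 39.9, 39.3 and 46.9 CPM, and T348I libraries 32.9, 29.7, 32.7, 29.2 and 34.0 CPM. The groups did not overlap, and the spread within each was small. INSR fell by 0.35 (SE 0.08, adjusted p = 0.00828), to 0.785-fold. The call ended with the 3 long-title T348I libraries summed into 1 (-0.37, adjusted p = 0.05896) and in either title set alone (adjusted p = 0.0988 and 0.0774).

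IRS2 (ENSG00000185950.8, chromosome 13, 109752698 to 109786568, minus strand) encodes an adaptor that links the insulin receptor to PI3K. It had 50.7, 81.6, 90.9, 66.1 and 68.2 CPM in wild-type libraries and 60.8, 61.3, 65.6, 85.1 and 66.4 CPM in T348I libraries. The ranges overlapped widely, and the highest T348I library was number 4. The log2 fold change was -0.08 (95% interval -0.38 to 0.23, adjusted p = 0.715). Its sign turned without wild-type library 3 (0.04) and in the short-title libraries alone (0.19).

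The targets with roles in growth arrest and protein turnover included the second large fall. KLHL24 (ENSG00000114796.15, chromosome 3, 183635568 to 183684477, plus strand) encodes a Kelch-family adaptor of a ubiquitin ligase known to act on keratin. Its wild-type libraries 1 to 5 had 67.2, 89.3, 75.6, 40.0 and 51.7 CPM, and its T348I libraries had 27.1, 34.7, 32.3, 12.9 and 24.1 CPM. The groups did not overlap in spite of a wide spread in each. KLHL24 fell by 1.30 (SE 0.15, adjusted p = 8.71e-05), to 0.406-fold, and the 2 title sets gave nearly the same value (-1.31 and -1.29).

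CCNG2 (ENSG00000138764.14, chromosome 4, 77157151 to 77433388, plus strand) encodes cyclin G2, an unusual cyclin that restrains the cell cycle. It had 60.4, 47.7, 39.7, 38.05 and 36.4 CPM in wild-type libraries and 25.9, 31.2, 30.4, 18.6 and 28.9 CPM in T348I libraries. Wild-type library 1 was highest and T348I library 4 lowest, and the groups did not overlap. The fall was 0.71 (SE 0.13, adjusted p = 0.00182), to 0.611-fold. It was 0.61 without wild-type library 1, still called, and within the short-title set the value was -0.62 at an adjusted p of 0.0507. Its paralogue CCNG1, a p53 target, had 105 ± 8.69 CPM with wild-type YES and 105 ± 9.50 CPM with T348I (log2 fold change 0.00095, adjusted p = 0.995; sign below 0 with RLE size factors).

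SESN3 (ENSG00000149212.11, chromosome 11, 95165513 to 95232541, minus strand) encodes a sestrin, a stress protein that restrains mTORC1. It was the scarcest member, with 2.12, 4.23, 3.48, 3.90 and 3.94 CPM in wild-type and 4.32, 4.91, 3.71, 1.26 and 2.18 CPM in T348I libraries. The 3 long-title T348I libraries lay above the 2 short-title ones, of which library 4 was below every wild-type library and library 5 near the lowest. The log2 fold change was -0.19 (95% interval -0.83 to 0.45, adjusted p = 0.672), 0.41 in the long-title and -1.15 in the short-title libraries. It became 0.05 without T348I library 4. The difference between the sets was -1.58 (unadjusted p = 0.00395, adjusted p = 0.997, edgeR interaction test). Without the low-count filter it was called (-1.59, adjusted p = 0.0488, edgeR interaction test), beside 91 of all 30742 genes. Of the other sestrins, SESN1 went from 20.5 ± 3.08 to 16.3 ± 3.58 CPM (-0.34, adjusted p = 0.0165) and SESN2 from 20.0 ± 5.69 to 32.1 ± 11.05 CPM (0.64, adjusted p = 0.00695). Neither call was kept with the long-title T348I libraries summed (adjusted p = 0.0776 and 0.0672) or without the title set term (0.235 and 0.138). The SESN1 call also ended without the low-count filter (0.0691), without T348I library 2 (0.0584), without T348I library 4 (0.0563) and in either title set, and the SESN2 call within the short-title set (0.216).

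CITED2 (ENSG00000164442.9, chromosome 6, 139371807 to 139374620, minus strand) encodes a cofactor that binds CBP and p300 and limits the hypoxia response. Wild-type libraries held 84.7, 84.6, 103, 89.9 and 115 CPM, and T348I libraries 81.7, 84.2, 74.8, 89.7 and 88.7 CPM. The T348I libraries were below the wild-type ones within each title set but not across sets. The log2 fold change was -0.19 (95% interval -0.37 to -0.00385, unadjusted p = 0.0459, adjusted p = 0.120). CITED2 passed without wild-type libraries 1 and 2 together (-0.26, adjusted p = 0.0297), but not without library 1 (adjusted p = 0.0745) or library 2 (0.0773) alone.

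**Figure D2:**
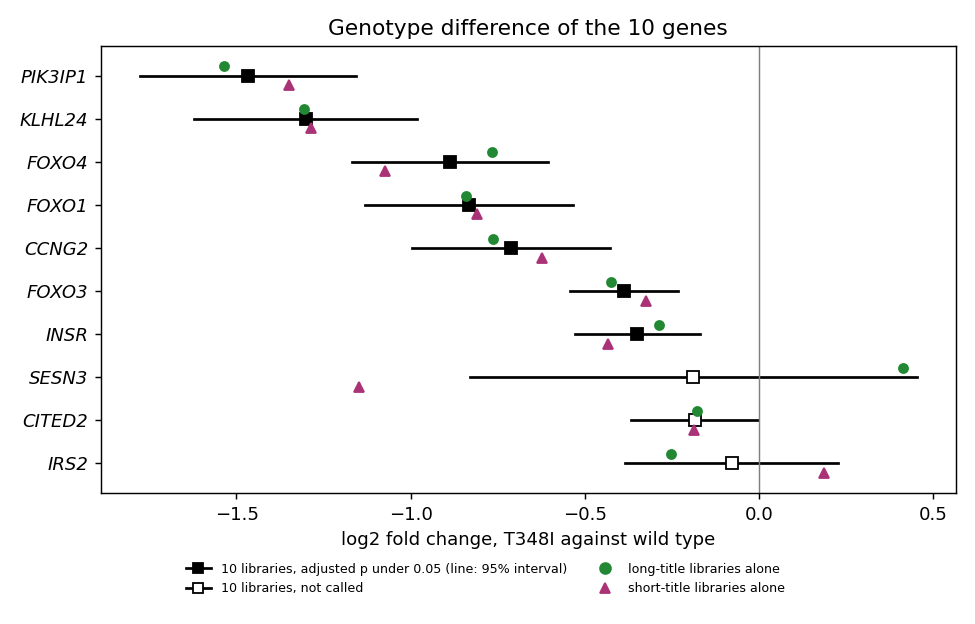
Log2 fold change of T348I against wild type for the 10 genes (squares, filled where adjusted p is under 0.05, with 95% intervals as lines), beside the value in the long-title (circles) and short-title libraries alone (triangles). The 7 called genes lie between -1.47 and -0.35 with both title sets below 0, and SESN3 is split between 0.41 and -1.15.

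Some of the 10 genes also differed between title sets, and many were extreme in a single library. Between title sets 5 of the 10 genes were called, all lower in short-title libraries: FOXO1, FOXO3, FOXO4, PIK3IP1 and KLHL24. Over all genes 43.1% were called between the sets, in either direction, so 5 of the 10 was near the background. The direction over all genes was not counted. T348I library 4, of the short-title set, was the lowest of its group in 8 of the 10 genes and the highest in IRS2 and CITED2. The share of all genes with their lowest or highest value in this library was not counted, so this may not be particular to the 10 genes. Without T348I library 4 the 7 calls stood, with KLHL24 at -1.18, PIK3IP1 at -1.37 and FOXO1 at -0.75. The part of either in the genotype difference was not tested beyond these fits. In the interaction test of genotype by title set 0 of the 10 genes and 0% of all genes were called, with 1 of the 10 at an unadjusted p under 0.05 and 459 of all 13743 genes.

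Levels were compared between genes per kilobase of annotated exon (RPKM, CPM divided by the exon length of the gene). In wild-type cells CITED2 was highest at 37.6 ± 5.16 RPKM, followed by FOXO3 at 14.1 ± 1.94 RPKM and IRS2 at 8.78 ± 1.89 RPKM. From IRS2 down through KLHL24, CCNG2, FOXO4, PIK3IP1 and INSR, each gene differed from the next by less than the sum of their SDs. FOXO1 (2.26 ± 0.940 RPKM) and SESN3 (0.334 ± 0.0790 RPKM) were the lowest. FOXO3 was thus the most abundant FOXO transcript in this line, also in T348I cells (10.8 ± 1.05 RPKM against 2.49 ± 0.685 for FOXO4 and 1.27 ± 0.553 for FOXO1). KLHL24, the fourth highest in wild-type cells at 7.49 ± 2.25 RPKM, was at 3.03 ± 0.990 RPKM in T348I cells, level with INSR.

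A wider list of 42 other genes that FOXO factors are known to activate went mostly the same way. It too was chosen with earlier results of these data known. With title set in the model and all libraries, 21 of its 36 tested genes fell and 6 rose. Over all genes 13.3% fell and 13.7% rose, so the share that rose was near the background in this model. The median log2 fold change was -0.41, and 27 of the 36 had values below 0 against 54.4% of all genes. The other 6, among them the gluconeogenic genes PCK1 and G6PC, were too scarce to test. HBP1, a repressor of cell cycle genes, had 106 to 144 CPM in wild-type and 51.6 to 85.2 CPM in T348I libraries (-0.77 ± 0.08, SE, adjusted p = 6.03e-05, edgeR). GABARAPL1, an autophagy gene, had 61.4 to 120 CPM and 26.7 to 56.4 CPM (-0.88 ± 0.11, adjusted p = 0.000179). TXNIP, which limits glucose uptake, fell by 1.24 (adjusted p = 7.65e-05), and PDK4, which inhibits pyruvate dehydrogenase, fell by 2.19 (adjusted p = 0.000354). BCL6, a transcriptional repressor, fell by 0.60 (adjusted p = 0.000499), but its adjusted p was 0.157 when title set was left out of the model and 0.0915 within the short-title set.

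The next 3 genes of the list lie outside the naming rule and were picked after their values were seen. BCL2L11, whose product BIM promotes apoptosis, went from 64.6 ± 16.0 to 31.3 ± 5.63 CPM (-1.04, adjusted p = 0.000580). TNFSF10, the gene of the death ligand TRAIL, went from 210 ± 81.1 to 103 ± 30.8 CPM (-0.999, adjusted p = 0.00158; 0.0617 in the short-title libraries alone). Catalase, CAT, an antioxidant enzyme, went from 60.6 ± 12.8 to 38.7 ± 3.14 CPM (-0.64, adjusted p = 0.00159). In all 3 genes every T348I library was below every wild-type library, as in 9 of the 36 tested genes of the list and 4.15% of all genes. Since the 3 were picked with their values seen, this separation only describes them.

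The 6 listed targets that rose were the translation repressor gene EIF4EBP1 (0.98, adjusted p = 7.65e-05), the stress genes GADD45B (0.65, adjusted p = 0.00127) and GADD45A (0.45, adjusted p = 0.00188), the apoptosis gene PMAIP1 (0.50, adjusted p = 0.000862), the transcription factor gene KLF2 (1.05, adjusted p = 0.00227) and the peroxiredoxin gene PRDX3 (0.21, adjusted p = 0.0322). Without the title set term the adjusted p was 0.109 for PMAIP1, 0.0817 for KLF2 and 0.362 for PRDX3, and in the long-title libraries it was 0.0543 for GADD45A and 0.109 for KLF2. PRDX3, named after its value was seen, lost its call in 13 of 21 alternatives, among them leaving out wild-type library 3 or 5 or any single T348I library (0.058 to 0.0947). In 3 of the 36 tested genes, GADD45A, GADD45B and EIF4EBP1, every T348I library was above every wild-type library, beside 6.94% of all genes. With the 3 long-title T348I libraries summed, 12 of the list fell and 5 rose, beside 563 and 899 of all 14371 genes. Without the title set term 11 fell and 3 rose, beside 497 and 818 of all 13743 genes.

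Of the kinases, phosphatases and other proteins of PI3K-AKT signalling, which link the receptors to FOXO, 23 genes were tested. Among them 3 rose and 2 fell, with a median of 0.01, beside 13.7% higher and 13.3% lower over all genes, so these shares were no larger than the background. RHEB, an activator of mTORC1, was higher (0.29 ± 0.08, SE, adjusted p = 0.0149), as were AKT1 (0.24 ± 0.08, adjusted p = 0.0460) and the AKT-related kinase gene SGK1 (0.62 ± 0.21, adjusted p = 0.0463). TSC1 (-0.37 ± 0.08, adjusted p = 0.00577) and TSC2 (-0.37 ± 0.12, adjusted p = 0.0356), whose products hold RHEB in check, were lower. None of the 5 passed without the title set term or with the long-title T348I libraries summed, where 0 of the list were called. Without T348I library 4 no gene of the list was called higher. The AKT1 call ended without wild-type library 4 or 5 or any single T348I library (adjusted p 0.0704 to 0.115), the SGK1 call without any single library but wild-type library 1 (0.0642 to 0.128) and the TSC2 call without any but wild-type library 2 (0.0558 to 0.0832). The insulin receptor substrate gene IRS1 had 118 ± 6.78 and 126 ± 5.61 CPM (0.09, adjusted p = 0.324), and IGF1R, a paralogue of INSR, 34.8 ± 8.70 and 34.9 ± 4.17 CPM (0.02, adjusted p = 0.907; below 0 in 6 alternatives). Another paralogue, CITED4, had 5.10 ± 1.56 and 5.82 ± 1.10 CPM (0.22, adjusted p = 0.466; -0.07 in the long-title libraries).

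Of 26 proteins known to act on FOXO directly, 4 had transcripts that rose and 1 had a transcript that fell, with a median of 0.11. The share that rose was close to the 13.7% over all genes, and the share that fell was under the 13.3% over all genes. CDK2, a cell cycle kinase that phosphorylates FOXO1, rose from 34.0 ± 4.39 to 64.1 ± 4.99 CPM (0.91 ± 0.09, SE, adjusted p = 4.77e-05). SKP2, a ubiquitin ligase subunit that directs FOXO1 to degradation, rose from 35.5 ± 3.64 to 50.005 ± 5.51 CPM (0.49 ± 0.08, adjusted p = 0.000769). Of the 7 genes for 14-3-3 proteins on the list, SFN (0.84 ± 0.14, adjusted p = 0.00113) and YWHAH (0.52 ± 0.10, adjusted p = 0.00234; 0.0665 in the long-title libraries) rose. EP300, the acetyltransferase p300 that serves FOXO as a coactivator, fell from 149 ± 13.5 to 106 ± 3.59 CPM (-0.49 ± 0.07, adjusted p = 0.000420). Every T348I library was above every wild-type library in 4 of the 26 genes, beside 6.94% of all genes. These were CDK2, SKP2, SFN and YWHAH, the same 4 that were called higher. In 1 of the 26, EP300, every T348I library was below, beside 4.15% of all genes. Without wild-type library 2, 9 genes of this list were higher, beside 2379 of all 14078 genes. Leaving out wild-type library 4, 3 were lower, beside 1612 of all 13893 genes, so that share was near the background.

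**Figure D3:**
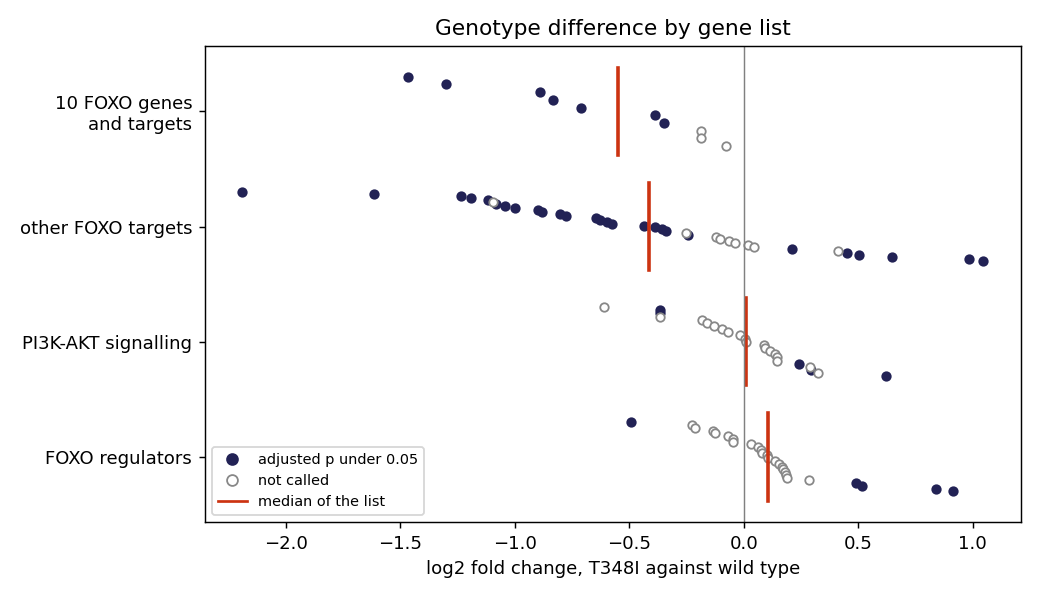
Log2 fold change of T348I against wild type for each tested gene of 4 lists (filled points: adjusted p under 0.05; open points: not called; red bars: median of the list). The medians of the 10 FOXO genes and targets (-0.55) and of the other FOXO targets (-0.41) lie below 0, and those of PI3K-AKT signalling (0.01) and FOXO regulators (0.11) near it.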

How the data were processed

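Per the submitters' processing notes, the tools were STAR 2.5.1b, Trimmomatic 0.35 and CASAVA 1.8.2, and the build was GRCh38; the annotation release is not given in the sources used here. The authors deposited raw counts per gene for each library, without regard to strand and on either strand. The opposite-strand counts were used, since 92.2% to 94.5% of stranded gene reads fell there. Reads outside any single gene (20.7% to 30.0% of a library) stayed out. Identifiers were matched to GENCODE 29 (57836 of 58174).

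Counts were filtered with filterByExpr (minimum count 10, minimum total 15), scaled by TMM and tested with edgeR 4.0.16 in R 4.3.3 (quasi-likelihood F test, title set and genotype as terms), with Benjamini-Hochberg adjustment over 13743 genes and a threshold of 0.05. CPM uses TMM library sizes. The SE of a log2 fold change is its size divided by the root of F. DESeq2 1.42.0, other scaling, filtering, strand, model and sample choices were the alternatives. The members and lists were chosen with earlier results of these data known. Besides the 10 genes and their paralogues, up to 5 called genes per list and direction, by lowest p, were named.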

Additional observations from a re-analysis of the deposited data

Results flagged for a closer look

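In 5 of 86 groups of 5 libraries (43 named genes, 2 genotypes) 1 library lay far from the other 4. The measure was the ratio of its gap to the range (Dixon's critical value 0.71). For 5 like draws chance gives about 1 in 20, but each group mixes 2 title sets, so that rate may not hold here. IRS2 was highest in T348I library 4, at 85.1 CPM. TNFSF10 was lowest in the same library, at 49.4 CPM, and so was CAT, at 33.1 CPM. Both TNFSF10 and CAT were named after their values were seen. INSR was highest in wild-type library 5, at 46.9 CPM, and without that library its log2 fold change was -0.29 (edgeR adjusted p = 0.0284). EIF4EBP1 was lowest in T348I library 5, at 43.0 CPM.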

How the results depend on the processing

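Alternatives comprised DESeq2, scaling by RLE or by library size, unstranded counts, no low-count filter, no title set term, either title set by itself, the title number as a replicate block, the 3 long-title T348I libraries summed, wild-type libraries 1 and 2 left out together, and each library left out. The count of the 10 genes called lower was 5 without the title set term, 6 with the libraries summed and 8 without wild-type libraries 1 and 2. The count was 6 in the long-title and 3 in the short-title libraries alone, where fewer samples were used. It was 7 without any single library. Over all genes, 497 of 13743 were lower without the title set term and 563 of 14371 with the libraries summed. Without wild-type libraries 1 and 2, 2055 of 14430 were lower. In the long-title and short-title libraries alone 499 of 13385 and 599 of 14531 were. SESN3 had the fewest counts of the 10 genes, 17 to 72 in a library. The part of depth in its result was not tested.

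The title numbers were not taken to pair libraries: deviations of same-numbered libraries correlated across genes at -0.025, 0.16 and 0.075 in the long-title and 0.22 in the short-title set, and 3 of the 6 long-title libraries correlated best with their own number. With the replicate block 7 of the 10 genes were lower, and 3741 genes were called in all against 3709.

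All genes called numbered 1315 without the title set term, 1197 and 1534 in the long-title and short-title libraries alone, 1462 with the libraries summed, and 2450 to 4676 without a single library. Other FOXO targets called lower were 11 without the term, 9 in the short-title libraries and 12 with the libraries summed. Beside them 497 of 13743, 599 of 14531 and 563 of 14371 of all genes were lower. Other FOXO targets called higher were 3 without the term and 3 in the long-title libraries, beside 818 of 13743 and 698 of 13385 genes. PI3K-AKT genes called higher were 0 without the term, in the long-title libraries and with the libraries summed. Beside them 818 of 13743, 698 of 13385 and 899 of 14371 of all genes were higher. In the short-title libraries 1 was higher, beside 935 of all 14531 genes, and without single libraries 0 to 3 were. PI3K-AKT genes called lower were 0 in the first 3 settings, beside 497, 499 and 563 of all genes, and 1 to 3 without single libraries. FOXO regulators called higher were 9 without wild-type libraries 1 and 2, beside 2304 of all 14430 genes, and 4 to 9 without single libraries. FOXO regulators called lower were 2 without both, beside 2055 of all 14430 genes. With DESeq2 3 were lower, beside 1981 of all 13743 genes, and 1 to 3 were without single libraries. Over all genes, without single libraries, 1342 of 13952 to 2379 of 14078 were higher and 1108 of 13952 to 2297 of 14078 lower. The interaction called 1 of the 10 genes, SESN3, without the low-count filter, beside 91 of all 30742 genes. The cause of these changes was not tested, also where a setting removes samples.

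Signs turned only in uncalled genes. SESN3 was 0.41 in the long-title libraries and -0.40 to 0.046 without single libraries. IRS2 was 0.19 in the short-title libraries and -0.18 to 0.038 without single libraries. IGF1R was -0.13 in the short-title libraries, -0.019 with the libraries summed, and -0.037 to 0.073 without single libraries. CCNG1 was -0.0056 with RLE, -0.0054 with DESeq2, -0.11 in the long-title libraries, and -0.048 to 0.053 without single libraries. CITED4 was -0.070 in the long-title libraries.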
